A study of Mus musculus with 10 samples.

Results

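The genes described here are 2 vestigial-like genes, Vgll2 and Vgll4, and 2 genes placed in or beside the Hippo pathway, Csnk1e and Fjx1, measured by 5 mRNA probes in hearts of young and aged mice. They were picked from the mRNA probes that the paper's supplementary tables name, because those tables list Vgll2 among upregulated and the other genes among downregulated mRNAs of aged hearts. The rule therefore used the age difference of these same 10 arrays, and the differences below are a description and carry no test. The 4 genes are among 719 genes (735 mRNA probes) that could be named, and the array holds 60641 probes in all. Names were stated with the probe for Vgll4, Csnk1e and Fjx1. The Vgll2 probe was identified by its listed p-value and fold change, which 1 probe of the authors' log2 table had.

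The 10 hearts came from male C57BL/6 wild-type mice, with 5 in the group labelled 3m (3 months of age) and 5 in the group labelled 20m (20 months of age). Each heart was hybridised to 1 one-colour array for lncRNAs and mRNAs. The mice received no treatment named in the labels and were housed singly. The aged mice came from another supplier than the young ones, and the effects of age and of supplier cannot be told apart. RNA was taken from heart tissue, a mixture of cell types in which fewer cells of a type and less RNA per cell cannot be told apart.

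The Hippo pathway is a kinase cascade that limits tissue growth. Its MST and LATS kinases phosphorylate the coactivators YAP and TAZ, which are then held outside the nucleus or degraded, whereas unphosphorylated YAP and TAZ enter the nucleus and switch on genes through the DNA-binding TEAD factors. Vestigial-like proteins bind the same TEAD factors. VGLL4 competes with YAP for them, and VGLL2 is a TEAD cofactor known from the differentiation of skeletal muscle. Upstream, the giant cadherins Fat and Dachsous feed into the cascade, and FJX1, the counterpart of fly four-jointed, is a protein of the Golgi and secretory route whose fly relative phosphorylates the cadherin domains of both. Casein kinase 1 epsilon, the product of Csnk1e, phosphorylates YAP that LATS has primed and so marks it for degradation, and it also phosphorylates the PERIOD proteins of the circadian clock and components of Wnt signalling. In the heart, YAP and TEAD activity is known for its part in cardiomyocyte proliferation before and shortly after birth.

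The probes are 60-base oligonucleotides. The pair for Csnk1e is shown because these probes read nearly the same stretch of message, Vgll4 because its probe holds an ATG near the start of the oligonucleotide, and Vgll2 because its probe holds a polyadenylation motif. Capitals mark the ATG in the Csnk1e and Vgll4 probes and, in Csnk1e, the bases that only the shorter transcript has. In Vgll2 they mark the motif AATAAA, and for the Csnk1e shorter transcript and Vgll2 only the bases from 12 to 60 and from 31 to 60 of the probe are printed.
Csnk1e longer transcript: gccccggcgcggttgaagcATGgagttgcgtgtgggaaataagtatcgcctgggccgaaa
Csnk1e shorter transcript: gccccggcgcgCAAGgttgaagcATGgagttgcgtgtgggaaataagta
Vgll4: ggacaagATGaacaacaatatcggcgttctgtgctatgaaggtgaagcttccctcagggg
Vgll2: tgggttaAATAAAatgcactattaaaatgc

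The Csnk1e probes share 45 of their 60 bases (75%). The probe of the shorter transcript (1391 bases) carries an insert of 4 bases, CAAG, where the shared sequence is otherwise continuous, and it starts 11 bases further upstream than the probe of the longer transcript (2694 bases). Its first 22 bases were found on the minus strand at chr15:79441928-79441949 (GRCm38.p6) in RefSeq promoter windows of Csnk1e. In both probes the ATG opens a reading frame with no stop codon before the end of the probe. Because so much sequence is shared, either transcript may give signal at both probes, and the 2 probes are not independent readings of the gene.

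The ATG of the Vgll4 probe, at base 8, also opens a frame without a stop codon. An ATG is not particular to these probes. Fjx1 has one at base 18, with no stop codon after it, and Vgll2 one at base 3, with a stop at codon 12. The probed Vgll4 transcript of 2028 bases starts 48.2 kb inside the RefSeq span of the gene, so it uses a start other than the outermost one. AATAAA, the usual signal for cleavage and polyadenylation, lies at base 38 of the Vgll2 probe. The motif was present in 28.9% of the 45 named upregulated mRNA probes and in 11.7% of the 690 named downregulated ones. GC content was 33.3% in the Vgll2 probe and 30% in the Fjx1 probe, against 50% in Vgll4, 60% in the Csnk1e longer and 65% in the Csnk1e shorter probe. The medians of the named probes were 43.3% (upregulated) and 45% (downregulated), so that Fjx1 and the Csnk1e shorter probe lie toward opposite ends of the range of the 690, which runs from 21.7% to 70%.

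In GRCm38.p6, Vgll2 lies on the plus strand at chr10:52022502-52028471. The remaining genes lie on minus strands, Vgll4 at chr6:114860621-114970007, Csnk1e at chr15:79417852-79455579 and Fjx1 at chr2:102449366-102451792. The core of the site that TEAD factors bind, GGAATG on either strand, occurs in 4817 of the 32851 RefSeq promoter windows of all genes (14.7%), each of which covers 250 bases before and 50 after a gene start. It was found in the 1 window of Vgll4, 82 bases before the start, and in neither the 1 window of Vgll2 nor the 4 of Csnk1e. The stretch around it, with the motif in capitals, is on the minus strand at chr6:114969268-114969297.
Vgll4 promoter: cgagtggggtggGGAATGctgagaaatgcc
This window belongs to a start upstream of the probed transcript, and a match of letters is not evidence of binding.

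Values are background-subtracted intensities, quantile-normalized over all probes, given a floor of 5 and expressed as log2 values. A probe's level can be compared between hearts and not with the level of another probe. Of 16720 mRNA probes with signal well above background on 5 or more arrays, 670 (4.01%) were called higher and 1613 (9.65%) lower with age by limma, at an adjusted p below 0.05 and a fold change of 1 or more on the log2 scale. All 5 member probes were called, 1 higher and 4 lower, as the choice from lists of changed genes fixes. Young and aged values were fully separate at 4 of the 5 member probes, against 24.4% of all mRNA probes tested. The choice from lists of changed genes favours such separation as well, so this contrast is no result about the members. The median log2 fold change of all mRNA probes tested was -0.05, with quartiles of -0.51 and 0.35. Of the named probes, log2 fold changes ran from 2.25 to 4.53 among the 45 upregulated and from -5.30 to -1.35 among the 690 downregulated, so Csnk1e at -1.45 lies just inside the latter list.

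Vgll2, the TEAD cofactor of the skeletal muscle lineage, was higher in aged hearts. The log2 values of young hearts (replicates 1 to 5) were 3.45, 4.27, 4.12, 3.45 and 3.54, and those of aged hearts were 7.24, 6.33, 5.75, 8.19 and 9.18. All aged hearts lay above all young hearts, and the aged hearts were spread far more widely than the young. The mean was 3.77 ± 0.40 (SD, n = 5) in young and 7.34 ± 1.39 (SD, n = 5) in aged hearts, a log2 fold change of 3.57 (standard error 0.52), or 11.9-fold. By size this was rank 5 of the 670 mRNA probes called higher. Scanner intensities before normalization ran from 8.53 to 23.7 in young and from 42.5 to 502 in aged hearts. The young hearts were therefore close to background, and replicate 1 among them was not well above it. Normexp background correction with an offset of 50 on every spot gave a log2 fold change of 1.72.

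Vgll4, which competes with YAP for TEAD, was lower in aged hearts. Young hearts measured 6.83, 6.63, 5.84, 5.80 and 6.38 on the log2 scale, and aged hearts 4.44, 4.25, 3.59, 3.90 and 3.81. The highest aged heart lay well below the lowest young heart, and all 10 arrays were well above background. From 6.30 ± 0.46 (SD, n = 5) to 4.00 ± 0.34 (SD, n = 5), the log2 fold change was -2.30 (standard error 0.24), or 4.92-fold lower. It ranked 61 of the 1613 probes called lower. Aged hearts had scanner intensities of only 10.4 to 20.1, and with normexp correction the log2 fold change was -0.90 and passed the fold limit no longer. Vgll2 and Vgll4 thus moved in opposite directions, a contrast that the choice of genes from an upregulated and a downregulated list already held.

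**Figure D1:**
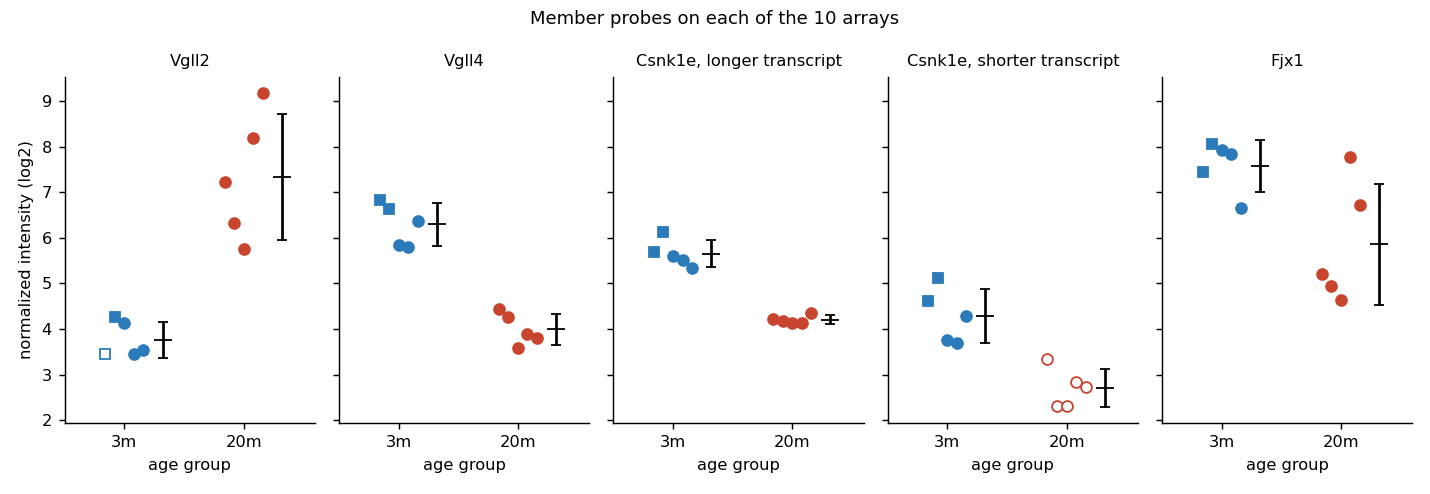
Normalized intensity (log2) of the 5 member probes in each heart, by age group (blue, 3m; red, 20m). Each point is 1 array, and squares mark the slide that held only 2 young hearts, where slide means arrays that share a scan date. Open symbols are arrays on which the probe was not well above background, and the bar gives the mean and SD of 5 arrays. Vgll2 lies higher and the other probes lower in aged hearts, and only at Fjx1 do the age groups overlap, through aged replicates 4 and 5 at 7.77 and 6.73.

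The probe of the longer Csnk1e transcript had log2 values of 5.70, 6.12, 5.61, 5.51 and 5.35 in young and 4.23, 4.18, 4.14, 4.14 and 4.36 in aged hearts. Aged hearts were nearly level with each other, with an SD of 0.09 against 0.29 in young hearts. The means were 5.66 and 4.21, a log2 fold change of -1.45 (standard error 0.16, n = 5 per group), or 2.73-fold lower. Of the 5 member probes it had the smallest standard error. The probe of the shorter transcript had values of 4.61, 5.11, 3.77, 3.70 and 4.28 in young hearts. In aged hearts no array put it well above background, and its values of 3.34, 2.32, 2.32, 2.85 and 2.73 include 2 arrays at the floor. By a bound, the shorter probe was at least 1.87-fold lower in aged hearts. The young mean is compared with, for each aged array, the dimmest normalized signal still well above background or the measured value, whichever was higher. That limit is lenient, so the bound is approximate. In aged replicate 1 the probe read 3.34, above the dimmest such signal of 3.26, and was still not well above background. In log2 this bound is 0.90, below the fold limit, so the call of this probe and its fitted values under other settings rest on aged signal near background. Measured means were 4.29 ± 0.59 and 2.71 ± 0.42 (SD, n = 5 each). Both probes were therefore lower in aged hearts and in neither did the age groups overlap. With normexp correction their log2 fold changes were -0.53 and -0.31, below the fold limit.

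Fjx1, on the Fat and Dachsous side of the pathway, differed least clearly. Log2 values were 7.45, 8.06, 7.94, 7.85 and 6.65 in young hearts and 5.20, 4.94, 4.64, 7.77 and 6.73 in aged hearts. Aged replicates 1, 2 and 3 lay below every young heart, whereas replicates 4 and 5 lay within the young range. The mean was 7.59 ± 0.57 (SD, n = 5) in young and 5.86 ± 1.34 (SD, n = 5) in aged hearts, a log2 fold change of -1.73 (standard error 0.53), or 3.32-fold lower. It was called with all 10 arrays. Leaving out young replicate 2 gave -1.62, and leaving out aged replicates 1, 2 or 3 gave -1.57, -1.50 and -1.43, and in these 4 cases Fjx1 was no longer called. Nor was it called without the detection filter, with a floor of 20 or with an unmoderated test in place of limma, each at an unchanged fold change. Normexp correction gave -1.01.

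**Figure D2:**
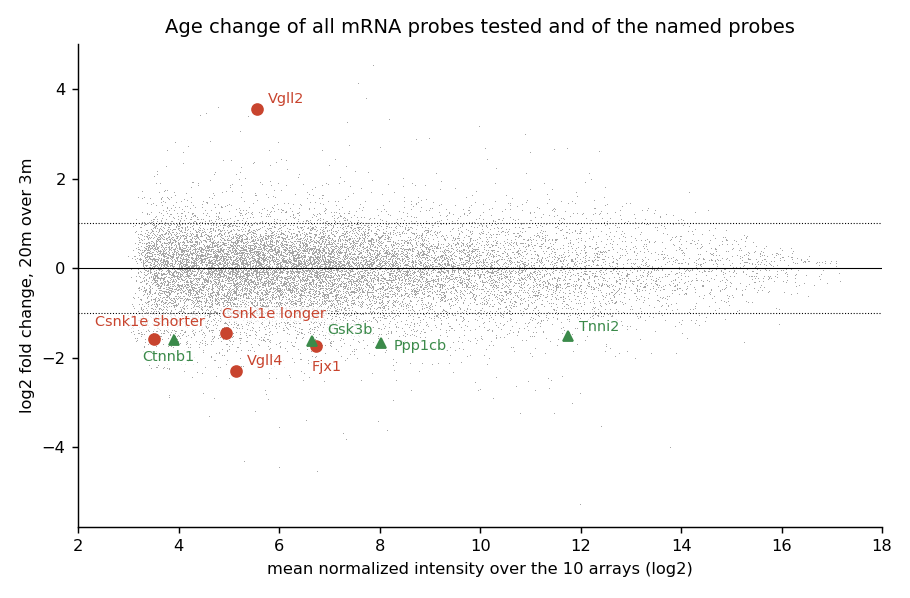
Log2 fold change (20m over 3m) of the 16720 mRNA probes tested against their mean normalized intensity (log2), 1 grey point per probe. Red circles are the 5 member probes, green triangles the named probes of 3 further genes of the pathway map and of the skeletal muscle marker Tnni2, and dotted lines the fold limit of 1 in each direction. Vgll2 stands at 3.57 near the upper edge, whereas the other members lie between -2.30 and -1.45.

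Among aged hearts, Vgll2 and Fjx1 had much the same order. Replicate 3 was lowest in both, followed by replicates 2 and 1, and replicates 4 and 5 were the 2 highest. The GAPDH control of the same arrays showed this order in reverse. The array carries control probes for the 3′ and 5′ ends of housekeeping transcripts, and the log2 ratio of the 3′ end to the 5′ end of GAPDH was 3.06 in aged replicate 3, 2.70 in replicate 2, 2.48 in replicate 1, 2.40 in replicate 5 and 2.33 in replicate 4. In young hearts it was 1.71, 1.70, 2.14, 2.16 and 2.17, so that the age groups did not overlap. Among young hearts neither Vgll2 nor Fjx1 followed the reverse order of this ratio throughout. The corresponding PGK1 ratio was 8.04 to 8.63 in young and 8.97 to 9.27 in aged hearts. In aged hearts it was highest in replicates 3 and 2 but lowest in replicate 1, below replicates 4 (9.12) and 5 (9.04), so PGK1 showed the reverse order only in part. With the GAPDH ratio as a covariate in the fit, the log2 fold change was 5.14 at Vgll2, -1.74 at Vgll4, -1.15 at the longer and -0.71 at the shorter Csnk1e probe, and -0.26 at Fjx1. Fjx1 and the shorter Csnk1e probe were no longer called. With the PGK1 ratio none of the 5 probes was called, and the values were 4.75 at Vgll2, -0.95 at Vgll4, -0.96 and 0.33 at Csnk1e and -1.29 at Fjx1. Since the ratios and the age groups do not overlap, these fits extrapolate, and how far the ratios set the differences was not tested.

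**Figure D3:**
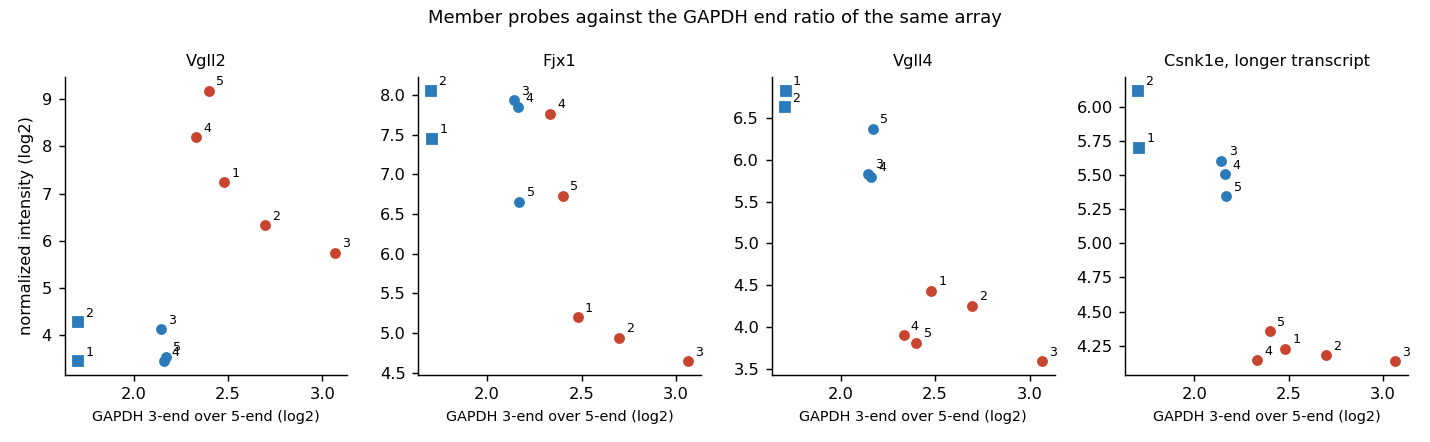
Normalized intensity (log2) of 4 member probes against the log2 ratio of the 3′ end to the 5′ end of the GAPDH control on the same array (blue, 3m; red, 20m; squares, the slide with 2 young hearts only; numbers, replicates). Among aged hearts Vgll2 and Fjx1 were lowest in replicate 3, where the ratio was 3.06, and highest in replicates 4 and 5, where it was 2.33 and 2.40.

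Young replicates 1 and 2 share 1 scan date in the file headers, and the other 3 young hearts and all aged hearts share another. Each set is called a slide here, a name that rests on the scan date alone. These 2 young hearts had the highest Vgll4 values (6.83 and 6.63) and the highest values at both Csnk1e probes, with means of 5.91 against 5.49 for the other young hearts at the longer and 4.86 against 3.92 at the shorter probe. At Fjx1 they did not stand apart. Their GAPDH ratios (1.71 and 1.70) and PGK1 ratios (8.04 in both) were the lowest of the 10 arrays. Slide, end ratios and these 2 animals cannot be told apart. On the slide that held both ages, the log2 fold changes were 3.63 at Vgll2, -2.01 at Vgll4, -1.28 at the longer Csnk1e probe and -1.62 at Fjx1. The direction of these 4 probes was kept there, and Fjx1 was not called. By the approximate bound used above, the shorter Csnk1e probe was at least 1.44-fold lower in aged hearts on that slide.

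**Figure D4:**
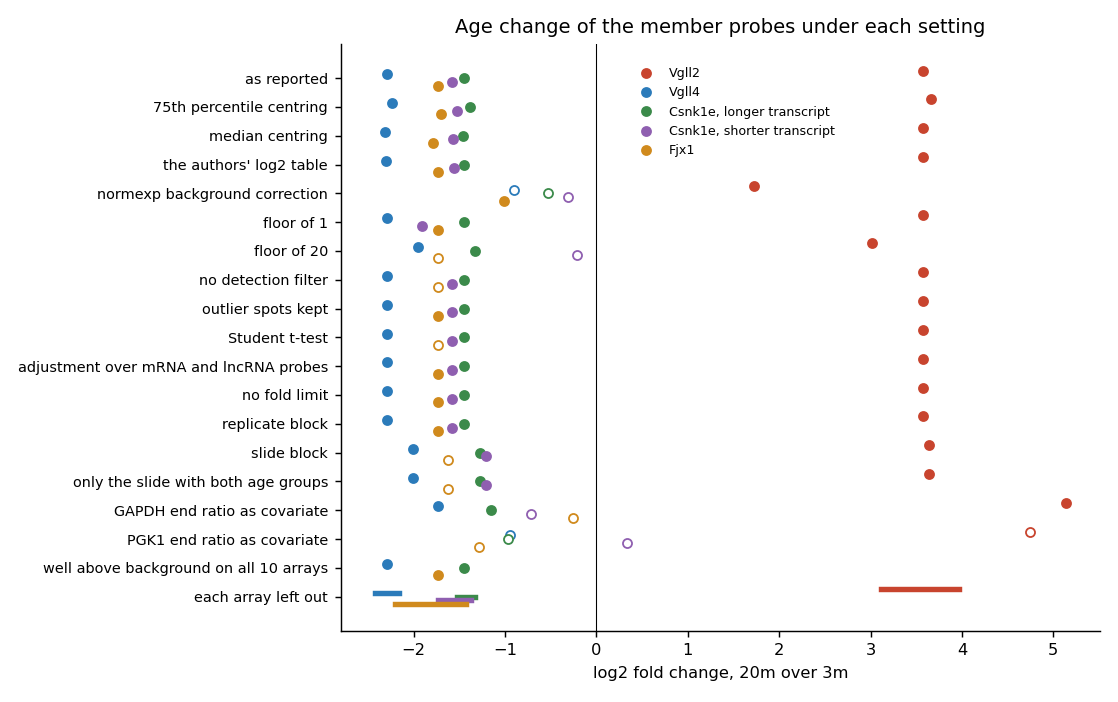
Log2 fold change (20m over 3m) of the 5 member probes as reported and under each other processing setting, and its range when each array was left out in turn (bars). Filled points passed the limits as in the reported fit and open points did not. Vgll2 stayed between 1.72 and 5.14, and the shorter Csnk1e probe was the one that changed sign, at 0.33 with the PGK1 ratio as a covariate.

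The mRNA probes whose profile over the 10 hearts was most like that of a member were found among the other named probes, after subtracting each probe's mean, by the root mean square difference of log2 values. For Vgll2 they were Prr32 (0.47), Tescl (0.56) and C130026I21Rik (0.71) out of 734 candidates, nearly all of which come from the downregulated list. For Fjx1 they were Esm1 (0.34), Rnf227 (0.34) and B630019K06Rik (0.35), with a median of 0.84. Esm1 is known as a secreted proteoglycan of endothelial cells. For Vgll4 they were Tmem68 (0.18), Paxbp1 (0.19) and Rab5a (0.20), the last a GTPase of early endosomes, with a median of 0.58. Profiles nearest to Csnk1e were those of Sec23a (0.11), Olfr571 (0.13) and Tnip1 (0.15) for the longer transcript, with a median of 0.42. No likeness is given for the shorter transcript, whose aged values were not well above background. All candidates come from lists of changed genes, so a shared age difference is built into this likeness.

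Lists of the Hippo pathway and of genes that act with it held 208 genes. They include a list of 18 core clock genes, substrates and partners of casein kinase 1, which is not a Hippo list. Of the 208 genes, 7 (8 probes) had a named mRNA probe and 3 of these were not members. None of the 32 kinases and scaffolds of the core cascade was among them, so most of the pathway was not analysed here. The 3 further genes act where Hippo meets other pathways, and all were named in a table of downregulated probes. Ppp1cb, a catalytic subunit of protein phosphatase 1, measured 8.56 to 9.20 in young and 7.20, 6.95, 6.31, 7.92 and 7.55 in aged hearts (replicates 1 to 5), where the log2 fold change was -1.67 with a standard error of 0.27. Its aged hearts had replicate 3 lowest and replicates 4 and 5 highest, as for Fjx1. Gsk3b, the kinase that marks beta-catenin for degradation, had a mean of 7.48 ± 0.30 in young and 5.84 ± 0.46 (SD, n = 5 each) in aged hearts. The log2 fold change was -1.63 (standard error 0.23). Here aged replicates 4 and 5 were the lowest, at 5.45 and 5.24. Ctnnb1, which encodes beta-catenin, ranged from 4.16 to 5.46 in young and from 2.32 to 3.62 in aged hearts. In aged hearts its signal was well above background on 1 array and lay at the floor on another, so the size of the difference is not given.

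The 3 lncRNAs listed with genes of these pathways could be named only through the list of changed lncRNAs, which fixes their directions. The lncRNA listed under Stk38, a gene for a kinase related to LATS, went from 12.45 to 5.58, a log2 fold change of -6.87 (standard error 0.18). It is listed as overlapping exons of that gene in sense, and whether its probe also reads the kinase message was not tested. Of 2 lncRNAs associated with Dlg2, a membrane scaffold gene, AK016451 is listed as antisense to an intron and AK139352 as overlapping an intron in sense. AK016451 was lower in aged hearts, at 9.86 ± 1.93 in young and 5.78 ± 0.21 (SD, n = 5 each) in aged hearts. The young values of 8.34, 11.78, 10.62, 11.23 and 7.31 were widely spread, whereas the aged values lay between 5.53 and 6.06. AK139352 was higher, with 2.63 ± 0.32 in young and 5.25 ± 1.71 (SD, n = 5 each) in aged hearts. It was well above background on 1 young and 4 aged arrays, and its age groups overlapped, since aged replicate 3 measured 2.90 and the highest young heart 3.08. Replicate 3 was also the lowest aged heart for Vgll2.

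**Figure D5:**
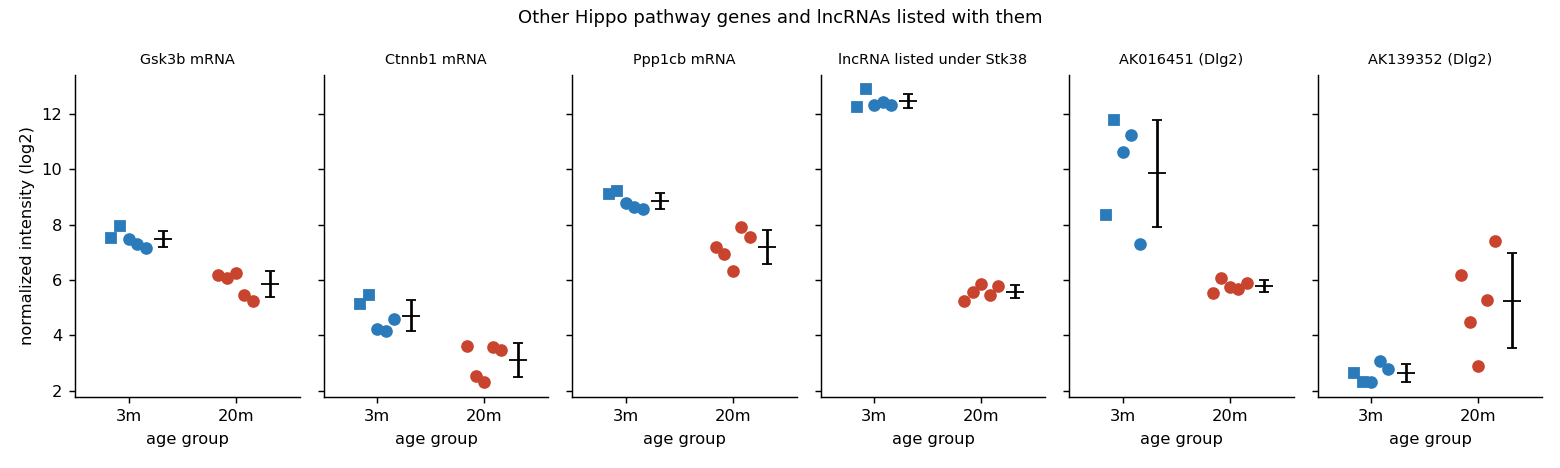
Normalized intensity (log2) in each heart of 3 mRNAs of the wider Hippo map that are not members and of the lncRNAs listed with Stk38 or Dlg2 (blue, 3m; red, 20m; squares, the slide with 2 young hearts only; bars, mean and SD of 5 arrays). The age groups overlap only at AK139352, where aged replicate 3 was at 2.90.

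Vgll2 is known from skeletal muscle, and of 21 skeletal muscle markers 1 had a named probe, Tnni2, the inhibitory troponin of fast fibres. It measured 12.51 ± 0.25 in young and 10.98 ± 0.30 (SD, n = 5 each) in aged hearts. Its log2 fold change was -1.53 (standard error 0.18), but it could be named only through the list of downregulated probes, which fixes its direction. The other markers of skeletal muscle were not analysed here. No probe of the 13 cardiomyocyte, 7 fibroblast, 5 endothelial, 6 macrophage or 5 smooth muscle and pericyte markers could be named, so the tissue label and the cell makeup of the hearts were not checked here. The share of probes well above background ran from 61.3% to 73.3% in young and from 64.0% to 67.3% in aged hearts, no spot was saturated, and no member spot was marked as an outlier. Precision is limited by there being 5 arrays of each age.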

How the data were processed

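Total RNA of 10 mouse hearts was hybridised to Agilent one-colour arrays. The authors deposited scanner files with a background-subtracted intensity per spot, not normalized between arrays, and a table of log2 values after quantile normalization. The software was Feature Extraction 11.0.1.1 per the file headers and 9.1 per the submitters' processing notes. The labelling kit differs between labels and methods.

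Intensities of 60641 probes were quantile-normalized, with outlier spots set to missing, given a floor of 5 and log2-transformed. The 16720 mRNA probes that 5 or more of the 10 arrays marked as well above background were fitted by age group with limma 3.58.1 in R 4.3.3 and adjusted by the Benjamini-Hochberg method. Calls needed an adjusted p below 0.05 and a change of 1 or more in log2. Figures used Python 3.11.15 and matplotlib 3.10.9. The fit was tested on simulated data.

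Probe names and sequences came from the paper's supplementary tables, of which the sheet of downregulated mRNAs was held in part. Entries without a probe name were identified with a tolerance of 0.002 on log scales. The authors' p-values and fold changes there were used for nothing else. Transcript coordinates in those tables overlap the RefSeq genes of GRCm38.p6 at all 5 member probes, whereas the array header names another build. Promoters and gene spans are from RefSeq, and no window of Fjx1 was used here.

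The members and gene lists were chosen with earlier results of these data known. Genes named are the members, listed pathway genes with a named probe, lncRNAs listed with such genes, and the 3 probes most like each member, of which those of the shorter Csnk1e transcript are not reported here. Tnni2, from the marker lists, is named in addition. Alternatives varied scaling, background correction, floor, filter, outlier spots, test, adjustment, fold limit, replicate number, slide, control ratios and arrays.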

Additional observations from a re-analysis of the deposited data

How the results depend on the processing

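Vgll2, Vgll4, Fjx1 and the longer Csnk1e probe kept their direction under every alternative run, and the shorter Csnk1e probe reversed under one. The filter of well above background on all 10 arrays left Vgll2 and the shorter Csnk1e probe without a value. Numbers of mRNA probes called higher moved from 670 to 247 with normexp correction, 432 with a floor of 20 and 2139 without a fold limit. Numbers called lower moved from 1613 to 547 with normexp correction, 3716 without a fold limit, 1070 on the slide with both ages, and 536 and 390 with the GAPDH and PGK1 ratios as covariates. Centring on the median or the 75th percentile in place of quantile normalization, or the authors' table, moved the median of all probes by at most 0.06 in size and the share of lower calls from 70.7% to between 68.0% and 75.6%.

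Members that no longer passed the limits kept their sign except where stated. With the PGK1 ratio these were Vgll2 (4.75), Vgll4 (-0.95), longer Csnk1e (-0.96) and Fjx1 (-1.29), and shorter Csnk1e turned to 0.33. With the GAPDH ratio they were shorter Csnk1e (-0.71) and Fjx1 (-0.26). With normexp correction they were Vgll4 (-0.90) and the Csnk1e probes (-0.53 and -0.31), and with a floor of 20 shorter Csnk1e (-0.22). Fjx1 was also lost with a floor of 20, without a detection filter and with the Student t-test (-1.73 in each), and with the slide as a block or on 1 slide (-1.62 in both). The cause was not tested. A floor of 20 lies above every aged value of the shorter Csnk1e probe and also above its young values in replicates 3, 4 and 5.

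With each array left out in turn, with normalization and filter kept, calls numbered 579 to 769 higher and 1334 to 1858 lower. Log2 fold changes were 3.11 to 3.97 at Vgll2, -2.42 to -2.16 at Vgll4, -1.52 to -1.33 and -1.74 to -1.38 at Csnk1e and -2.21 to -1.43 at Fjx1, which lost its call in 4 cases. All values of the shorter Csnk1e probe are fitted on aged signal not well above background and support no size beyond the bound of 1.87-fold. Same-numbered hearts of the 2 ages share only a number. Correlations of their deviations were 0.23, -0.09, 0.24, 0.01 and -0.37, and 2 of 5 young hearts correlated best with the aged heart of their own number. With the replicate block, 669 probes were higher and 1612 lower, and the members' log2 fold changes stayed at 3.57, -2.30, -1.45, -1.58 and -1.73, all still called.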
